A study of Mus musculus with 12 samples.

Results

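The genes described here are 46 genes of the cell cycle and of DNA replication, picked by symbol and found in all 12 libraries of a study of mouse embryonic fibroblasts (MEFs) at the start of reprogramming. They were 46 of 20325 genes in the tables, and all 46 were among the 13936 genes that passed a filter on low counts. A cell that divides licenses its replication origins in G1 by loading the Mcm helicase, turns on cyclin E and E2F target genes at the G1/S border, copies its DNA with the replication fork proteins, and then makes mitotic cyclins, kinases and spindle proteins that separate the chromosomes. Many of these genes are transcribed in a cell cycle phase, the replication genes mainly through E2F factors and the mitotic genes through the MuvB complex with B-Myb and FoxM1. A bulk RNA level of such a gene therefore follows both the share of cells in that phase and the RNA made per cell, and these cannot be told apart here.

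All cells carried a floxed AF10 (Mllt10) gene, a cofactor of the histone methyltransferase DOT1L, together with doxycycline-inducible Oct4, Sox2, Klf4 and c-Myc (OSKM) and the rtTA activator. MEF_fl cells received an empty adenovirus and kept AF10, and MEF_creAF10 cells received a Cre adenovirus and are labelled AF10 -/-; neither was put through reprogramming. Both kinds of cell were also taken on day 4 of reprogramming in 2 µg/mL doxycycline, with DMSO as the vehicle (Day4_fl_DMSO and Day4_creAF10_DMSO) or with 5 µM of the DOT1L inhibitor SGC0946 (Day4_fl_SGC and Day4_creAF10_SGC). Each of the 6 groups had 2 libraries. The study asked how AF10 and DOT1L activity bear on cell identity. MEFs and day 4 cells also differed in medium, and the day 4 plates held DR4 feeder MEFs whose share of the RNA was not measured, so reprogramming, medium and feeders cannot be told apart in a comparison of day 4 with MEFs. There were no cells with Cre but without floxed alleles, so Cre and the deletion cannot be told apart either.

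The libraries held between 14602536 and 22800753 expected counts, and the smallest count of any of the 46 genes in any library was 20. Mllt10 lay between 34.4 and 44.2 CPM (counts scaled to library size) in the 6 libraries labelled AF10 -/-, at 43.1 and 45.4 in MEF_fl, and between 54.1 and 61.4 in the day 4 libraries with intact AF10. At each stage the deleted libraries were below the intact ones, although a gene total does not resolve the deleted exons. Of 8 fibroblast markers 7 fell by day 4, and their summed level went from 39600 to 58900 CPM in the 4 MEF libraries to 8860 to 11000 CPM in the 8 day 4 libraries. Of 7 macrophage and blood markers tested 4 rose, and the summed level of that list of 8 went from between 5.29 and 12.8 CPM in MEFs to between 49.4 and 73.3 CPM on day 4. Laptm5 made up most of it on day 4, at 36.1 to 57.5 CPM, while Csf1r was at or below 1.75 CPM in all 12 libraries. Of 3 endothelial markers tested Tek rose, Kdr fell and Cdh5 was below 1 CPM throughout, and that list of 4 went from between 18.9 and 21.7 CPM to between 81.7 and 123 CPM in sum. The part of these other cells in the results below was not tested. The markers of dividing cells, Mki67 and Mcm7, were present in every library, at 124 CPM or more and at 52.2 CPM or more.

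By day 4, 42 of the 46 genes had risen in cells with intact AF10 and 1, E2f1, had fallen. In the edgeR quasi-likelihood test at an adjusted p under 0.05, 25.7% of all genes tested rose and 26.3% fell in that comparison of Day4_fl_DMSO with MEF_fl. The median log2 change of the 46 genes was 0.97, beside 0.01 over all genes tested, and it was 0.86 between the replicate 1 libraries and 1.10 between the replicate 2 libraries. Summed over the 46 genes, the level was 1800 and 1620 CPM in MEF_fl, and 3320 and 3360 CPM in Day4_fl_DMSO. For 40 of the 46 genes (87.0%) all 8 day 4 libraries lay above all 4 MEF libraries, which was so for 27.0% of all genes tested. For 2 genes, Ccne2 and E2f1, all 8 lay below all 4, which was so for 26.9% of all genes. Both Day4_fl_DMSO libraries lay above both MEF_fl libraries for 43 of the 46 genes and below them for 2. Over all genes tested the shares were 39.0% above and 37.9% below, so a lack of overlap between these 2 groups was common. The G1/S group stood apart: its median log2 change was 0.19, against 0.88 for the licensing and fork genes, 0.90 for the nucleotide genes, 1.09 for the mitotic cyclins and kinases, and 0.98 for the chromosome and spindle genes; the differences between these medians were not tested.

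**Figure D1:**
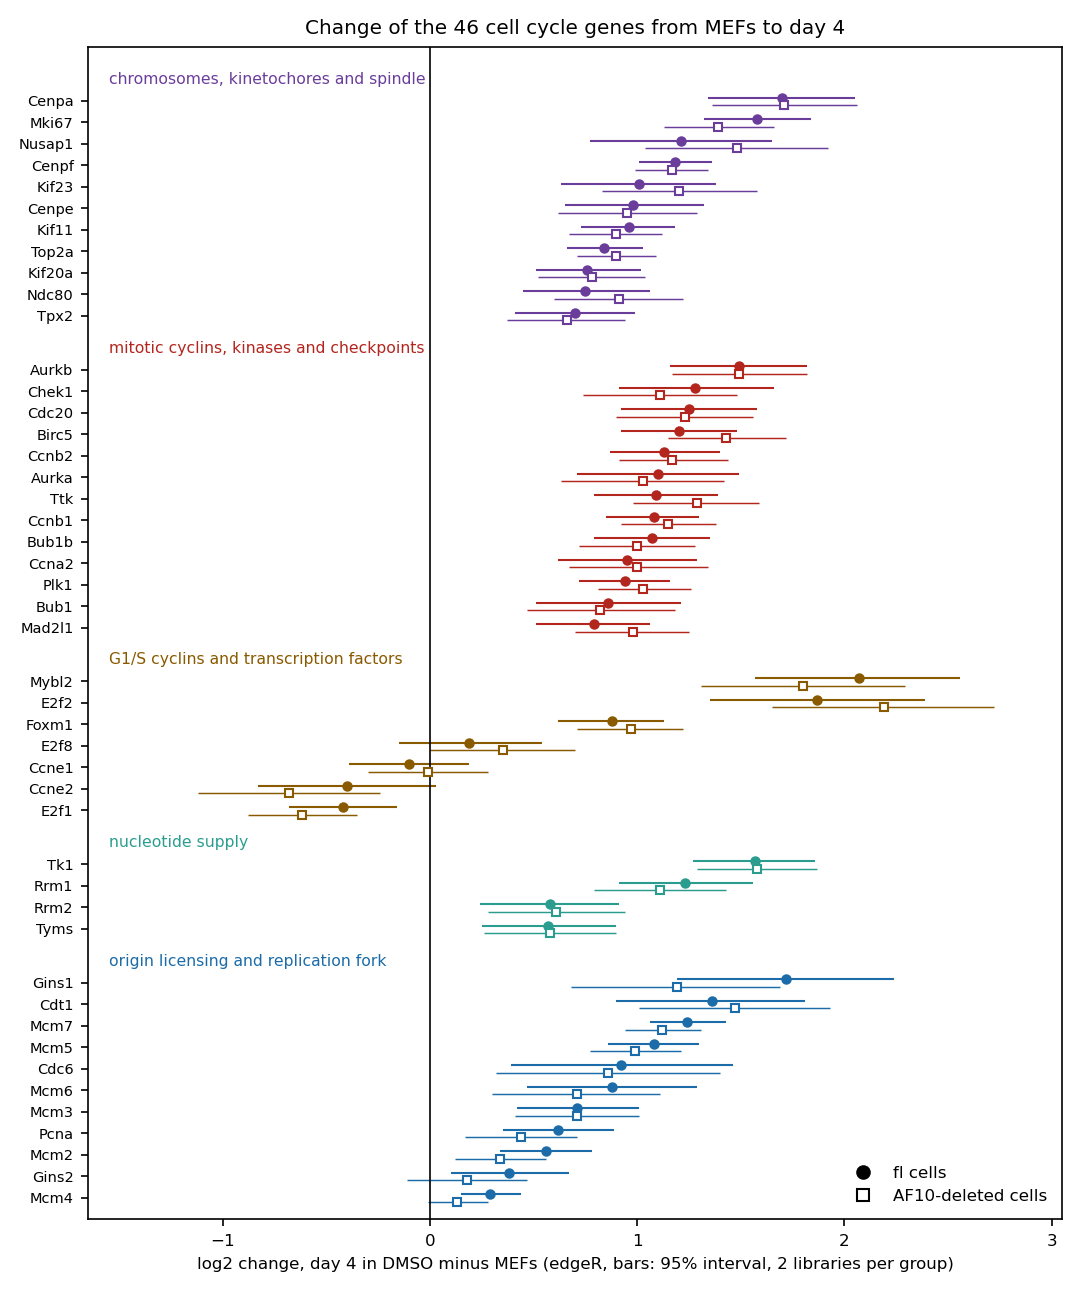
Log2 change from MEFs to day 4 in DMSO (horizontal axis) for each of the 46 genes, grouped by role, in fl cells (filled circles) and AF10-deleted cells (open squares), with 95% intervals from edgeR over 2 libraries per group. All points of the mitotic and of the chromosome and spindle groups lie to the right of 0, while the G1/S group spreads from -0.68 for Ccne2 in deleted cells to 2.19 for E2f2 in deleted cells.

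All 11 licensing and fork genes rose. Mcm7, a subunit of the helicase that unwinds DNA at the fork, was at 52.2 and 56.7 CPM in MEF_fl and at 127 and 130 CPM in Day4_fl_DMSO. The groups did not overlap, and the replicates of each group lay close together. The log2 change was 1.24 ± 0.0831 (SE), a 2.37-fold rise (edgeR adjusted p 2.84e-06). Its partner Mcm5 went from 39.5 and 34.0 CPM to 80.7 and 74.5 CPM. Mcm6 went from 72.4 and 54.2 CPM to 122 and 111 CPM, with a wide gap between the MEF libraries. The subunits did not rise by the same amount: the log2 changes were 0.56 for Mcm2, 0.71 for Mcm3, 0.29 for Mcm4, 1.08 for Mcm5 and 0.88 for Mcm6. Mcm4 had the smallest change of the group, from 72.4 and 76.8 CPM to 94.6 and 88.5 CPM (0.29 ± 0.0659, adjusted p 0.00424). The intervals of Mcm4 (0.15 to 0.44) and Mcm7 (1.06 to 1.43) did not overlap. These were the smallest and largest changes among the Mcm subunits, and the difference between them was not tested.

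Cdt1, which loads the Mcm helicase onto origins, was at 8.6 and 9.65 CPM in MEF_fl and at 25.7 and 21.0 CPM in Day4_fl_DMSO. Both day 4 libraries were above both MEF libraries, and the log2 change was 1.36 ± 0.20 (adjusted p 0.000447). Cdc6, its partner in loading, went from 5.28 and 6.92 CPM to 11.3 and 11.9 CPM (0.92 ± 0.24, adjusted p 0.00933). Gins1, a subunit of the GINS complex that joins the Mcm ring in the active helicase, had the largest change of the group and low counts. It was at 1.78 and 2.25 CPM in MEF_fl and at 6.89 and 6.37 CPM on day 4, a log2 change of 1.72 ± 0.23 (adjusted p 0.00024). Its partner Gins2 went from 12.7 and 12.9 CPM to 18.3 and 15.1 CPM (0.38 ± 0.13, adjusted p 0.0301), and it was the only one of the 42 risen genes that DESeq2 did not call (adjusted p 0.0826, against 0.0301 in edgeR). Pcna, the sliding clamp of the polymerases, rose from 93.5 and 96.7 CPM to 157 and 135 CPM (0.62 ± 0.12, adjusted p 0.00201).

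All 4 nucleotide genes rose. Tk1, the thymidine kinase of the salvage pathway, was at 17.1 and 17.7 CPM in MEF_fl and at 52.0 and 50.8 CPM in Day4_fl_DMSO. The replicates nearly coincided in both groups, and the log2 change was 1.57 ± 0.13 (adjusted p 1.17e-05). Rrm1, the large subunit of ribonucleotide reductase, went from 135 and 104 CPM to 288 and 274 CPM (1.23 ± 0.14, adjusted p 9.31e-05). Rrm2, the small subunit, rose less, from 65.6 and 58.0 CPM to 83.5 and 101 CPM (0.58 ± 0.15, adjusted p 0.00895). Tyms, which makes thymidylate, went from 48.1 and 60.3 CPM to 73.1 and 87.9 CPM (0.57 ± 0.14, adjusted p 0.00822). The call for Tyms was lost without the Day4_fl_DMSO replicate 2 library and without the MEF_fl replicate 1 library, with log2 changes of 0.45 and 0.42 and adjusted p-values of at most 0.0647.

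The 7 genes of the G1/S group went in different directions. Mybl2, which encodes B-Myb, a partner of the MuvB complex at mitotic promoters, had the largest change of the 46 genes. It was at 8.24 and 5.22 CPM in MEF_fl and at 29.0 and 27.5 CPM in Day4_fl_DMSO, a log2 change of 2.07 ± 0.22 and a 4.18-fold rise (adjusted p 5.07e-05). E2f2, an activating E2F factor, was the lowest of the 46 genes per length, and it went from 1.48 and 1.70 CPM to 6.09 and 5.59 CPM (1.87 ± 0.23, adjusted p 0.000139). Foxm1, the activator that follows B-Myb at mitotic promoters, rose from 34.6 and 28.6 CPM to 56.5 and 59.5 CPM (0.88 ± 0.11, adjusted p 0.000183). These 3 factors were higher on day 4 in both replicates.

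E2f1, the best known activating E2F factor, went the other way. It was at 38.1 and 41.4 CPM in MEF_fl and at 31.1 and 28.3 CPM in Day4_fl_DMSO, with no overlap (-0.42 ± 0.12, adjusted p 0.0127). Ccne1 and Ccne2 encode the cyclin E proteins that activate CDK2 at the G1/S border. Ccne1 was at 30.5 and 26.1 CPM in MEF_fl and at 26.7 and 26.0 CPM on day 4, a log2 change of -0.10 ± 0.13 with an interval of -0.39 to 0.19 (adjusted p 0.536). Ccne2 was at 9.84 and 11.3 CPM in MEF_fl and at 8.9 and 7.15 CPM on day 4 (-0.40 ± 0.19, interval -0.83 to 0.03, adjusted p 0.107). E2f8, a repressive E2F factor, was at 9.9 and 8.5 CPM and then at 10.7 and 10.3 CPM (0.19 ± 0.16, interval -0.15 to 0.54, adjusted p 0.32). Ccne1, Ccne2 and E2f8 were the 3 genes of the 46 that did not pass the test. Ccne2 passed in the paired fit, which adds the replicate number as a block within each stage (paired adjusted p 0.0203). With library totals in place of TMM factors, which moved the median of all genes to 0.18, no gene of the 46 was called lower, so the fall of E2f1 was not called under that scaling, and it was not called without the Day4_fl_DMSO replicate 2 library or without the MEF_fl replicate 2 library either.

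All 13 mitotic cyclins, kinases and checkpoint genes rose, by 0.79 to 1.49 on the log2 scale. Aurkb, the kinase of the chromosomal passenger complex, had the largest change, from 14.5 and 13.5 CPM to 43.3 and 35.2 CPM (1.49 ± 0.15, adjusted p 3.12e-05). Its partner Birc5 (survivin) went from 22.2 and 19.2 CPM to 48.7 and 46.7 CPM, and the spindle pole kinase Aurka from 17.8 and 14.2 CPM to 32.8 and 35.9 CPM. The kinase Chek1, which holds back mitosis while DNA is damaged or unreplicated, was at 7.47 and 5.52 CPM and then at 16.2 and 15.5 CPM (1.28 ± 0.17, adjusted p 0.000183). The cyclins rose to like degrees. Ccna2 changed by 0.95, Ccnb1 by 1.08 and Ccnb2 by 1.13, and for each of them both day 4 libraries were above both MEF libraries. Cdc20, the activator of the anaphase-promoting complex, rose by 1.25, and Plk1, a kinase that drives mitotic entry and exit, by 0.94. Of the spindle checkpoint, Bub1 rose by 0.86, Bub1b by 1.07, Ttk by 1.09 and Mad2l1 by 0.79. Mad2l1 had the smallest change of the group, from 20.9 and 19.6 CPM to 36.2 and 33.6 CPM (0.79 ± 0.12, adjusted p 0.000527).

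All 11 chromosome, kinetochore and spindle genes rose, by 0.70 to 1.70. Mki67, whose protein coats mitotic chromosomes and marks cycling cells, was at 146 and 137 CPM in MEF_fl and at 400 and 447 CPM in Day4_fl_DMSO. The lowest of the 8 day 4 libraries, at 354 CPM, was above the highest of the 4 MEF libraries, at 158 CPM. The log2 change was 1.58 ± 0.12, a 2.99-fold rise (adjusted p 5.86e-06). Cenpa, the histone H3 variant of the centromere, had the largest change, from 17.0 and 12.2 CPM to 47.3 and 47.2 CPM (1.70 ± 0.16, adjusted p 2.16e-05). Among the other kinetochore genes Cenpe rose by 0.98, Cenpf by 1.18 and Ndc80 by 0.75. The mitotic motors Kif11, Kif20a and Kif23 rose by 0.96, 0.76 and 1.01. The microtubule-binding proteins differed: Nusap1 rose by 1.21, while Tpx2 had the smallest change of the group, from 62.2 and 51.2 CPM to 89.1 and 95.6 CPM (0.70 ± 0.13, adjusted p 0.00144). Top2a, the topoisomerase that untangles sister chromatids, rose from 144 and 133 CPM to 248 and 249 CPM (0.84 ± 0.0842, adjusted p 3.43e-05).

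**Figure D2:**
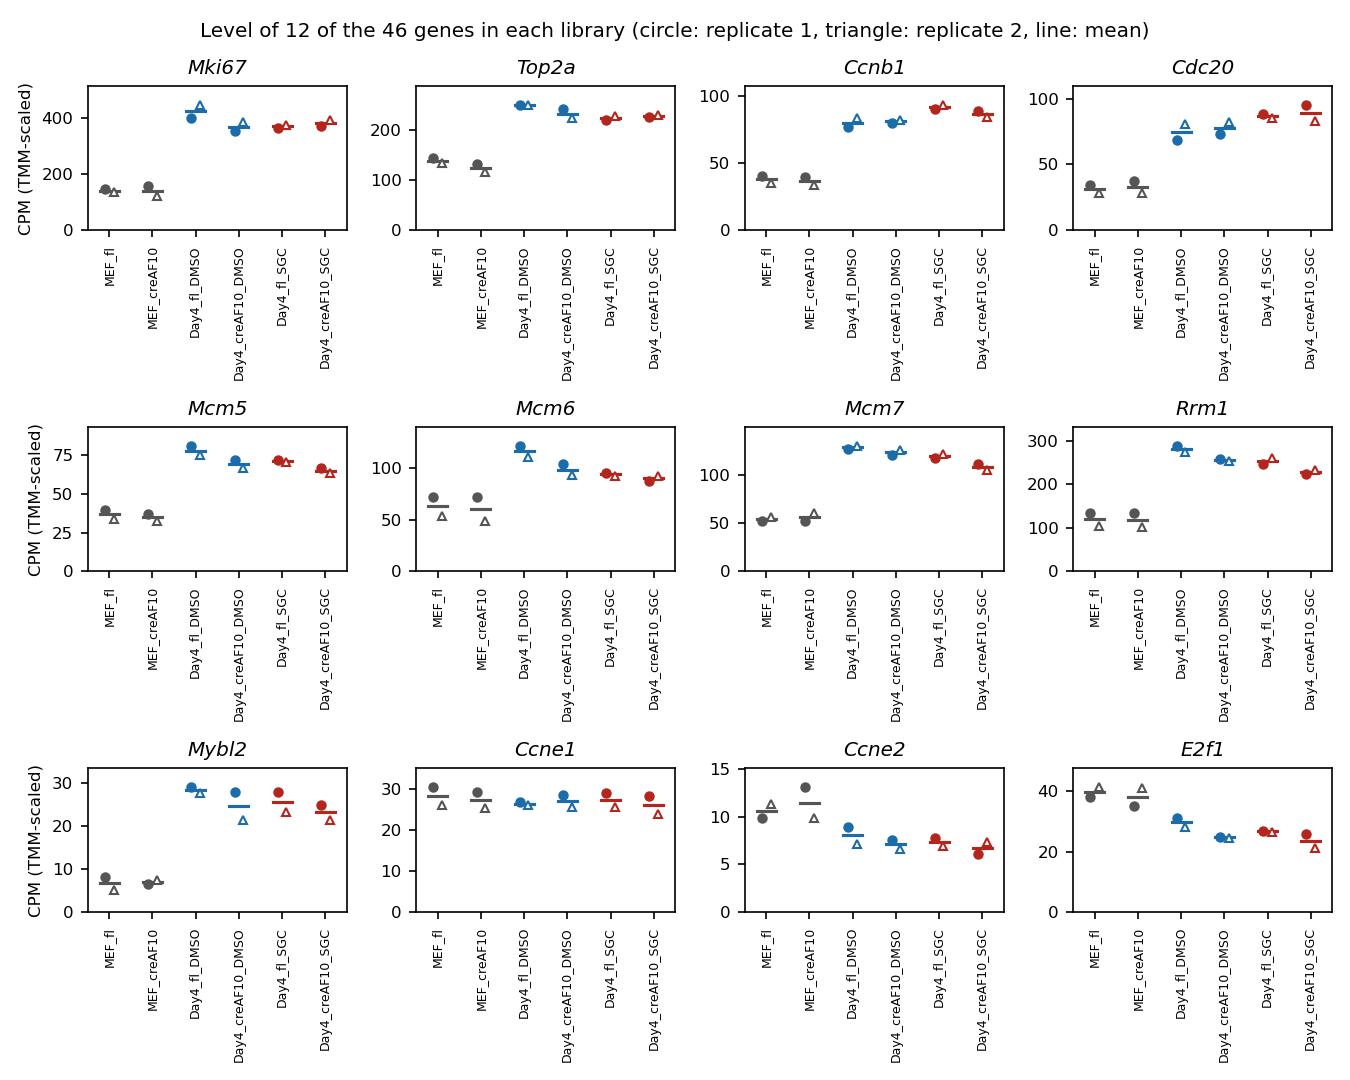
Level in CPM, scaled by TMM factors, of 12 of the 46 genes in each of the 12 libraries; circles are replicate 1, triangles replicate 2, lines the mean of both, grey MEFs, blue day 4 in DMSO and red day 4 in SGC0946. For Mki67 all 8 day 4 libraries sit between 354 and 447, above the 4 MEF libraries, while E2f1 and Ccne2 are lower on day 4 and Ccne1 overlaps between the stages.

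Levels of different genes can be compared only per length. In TPM, transcript abundance corrected for length and depth, Pcna was highest in MEF_fl at 170 ± 7.81 (SD, n = 2), above Rrm1 at 65.3 ± 10.4 and Rrm2 at 62.6 ± 4.02, which did not differ beyond their spread. The lowest were Mybl2 at 3.96 ± 1.17, Cdc6 at 2.94 ± 0.622, which lay within that spread, and E2f2 at 0.73 ± 0.0849. Chek1 at 4.18 ± 0.792 and Gins1 at 4.3 ± 0.919 also lay within the spread of Mybl2. On day 4 in Day4_fl_DMSO, Pcna at 246 ± 20 and Rrm1 at 145 ± 1.63 still led, and Mcm7 at 112 ± 4.74 stood above Rrm2 at 88.3 ± 13.8. Ccne2 at 5.51 ± 0.707, Cdc6 at 5.26 ± 0.325 and E2f2 at 2.54 ± 0.0919 were the lowest on day 4, and E2f8 at 5.89 ± 0.0212 lay within the spread of Ccne2. Mybl2 was no longer among them.

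Promoters of the 46 genes, whatever the direction of their change, were searched for known letters. E2F factors and the MuvB complex bind such letters near the start of their target genes. RefSeq promoter windows of 250 bases before to 50 bases after an annotated start (mouse build GRCm38.p6) matched 37 of the 46 genes, and 27025 genes had such a window in all; where a gene had 2 starts, the table's leading one was used. The E2F octamers TTTGGCGC, TTTCCCGC, TTTGCCGC and TTTCGCGC, searched on both strands, were in 7 of the 37 windows (18.9%) and in 2.32% of all windows. Of the 8 licensing and fork genes with a window 6 had an octamer, Mcm3, Mcm5, Mcm6, Mcm7, Cdc6 and Cdt1, as had E2f2, while none of the 11 mitotic and 9 chromosome and spindle genes did. The CHR hexamers TTTGAA and TTCGAA, the letters bound by MuvB, were in 17 of 37 windows (45.9%) and in 19.4% of all. They were in 7 of the 11 mitotic genes and 7 of the 9 chromosome and spindle genes, but in 2 of the 8 licensing and fork genes. The NF-Y pentamer CCAAT was in 25 of 37 windows (67.6%) and in 37.9% of all. The annotated start need not be the one used in these cells. The E2f1 window reads as coding sequence of the gene, so it says nothing about the E2f1 promoter. It is still counted among the 37 windows, without a match. A match describes the letters only; binding was not measured.

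The last 180 bases before the start are printed for 5 of these genes, in the direction of transcription, to set 3 helicase genes with E2F octamers beside 2 mitotic genes with CHR hexamers. Capitals mark octamers, hexamers and pentamers on either strand, and overlapping octamers run on in 1 block.
Mcm5 (chr8:75109329-75109508, plus strand): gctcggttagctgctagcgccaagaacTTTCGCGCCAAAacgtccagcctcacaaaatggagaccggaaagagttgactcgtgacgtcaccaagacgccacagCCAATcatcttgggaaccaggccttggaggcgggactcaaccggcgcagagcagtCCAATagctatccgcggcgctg
Mcm6 (chr1:128359706-128359885, minus strand): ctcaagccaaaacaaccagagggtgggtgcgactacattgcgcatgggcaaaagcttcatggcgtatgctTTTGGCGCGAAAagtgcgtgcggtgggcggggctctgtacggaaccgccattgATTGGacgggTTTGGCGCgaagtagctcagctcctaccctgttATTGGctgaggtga
Mcm7 (chr5:138171884-138172063, minus strand): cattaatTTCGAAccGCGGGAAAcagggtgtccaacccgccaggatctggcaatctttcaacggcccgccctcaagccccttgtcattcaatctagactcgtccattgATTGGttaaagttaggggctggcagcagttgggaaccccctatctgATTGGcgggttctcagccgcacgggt
Top2a (chr11:99024190-99024369, minus strand): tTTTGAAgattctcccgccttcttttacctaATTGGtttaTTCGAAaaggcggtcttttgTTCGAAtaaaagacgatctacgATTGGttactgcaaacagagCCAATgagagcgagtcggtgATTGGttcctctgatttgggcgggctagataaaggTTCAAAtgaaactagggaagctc
Cdc20 (chr4:118437344-118437523, minus strand): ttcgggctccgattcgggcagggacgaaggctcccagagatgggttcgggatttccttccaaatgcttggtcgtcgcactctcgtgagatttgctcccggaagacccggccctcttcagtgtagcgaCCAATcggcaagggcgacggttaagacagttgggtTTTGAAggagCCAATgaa
Mcm6 has E2F blocks at positions -110 and -47 from the start with a pentamer between them, and Mcm5 has 1 block with both orientations of the octamer overlapping. Mcm7 holds an E2F octamer and a CHR hexamer close to each other. Top2a holds 4 CHR hexamers and several pentamers within its window and no octamer. Cdc20 holds 1 hexamer between pentamers, close to the start.

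**Figure D3:**
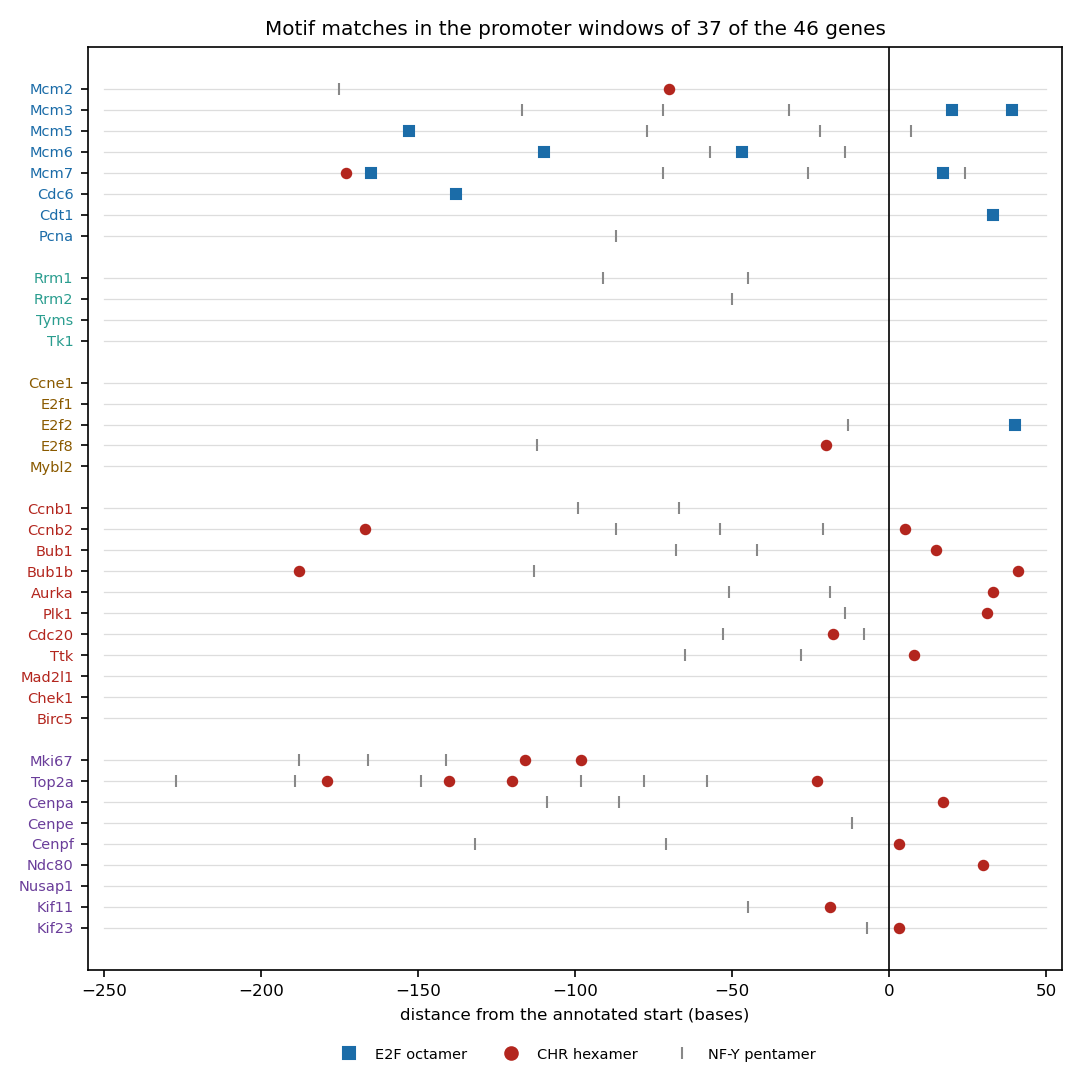
Place of each motif match in the promoter windows of 37 of the 46 genes, as distance in bases from the annotated start; squares are E2F octamers, circles CHR hexamers and short bars NF-Y pentamers, and gene names are coloured by role. Squares lie almost only in the rows of the licensing and fork genes, in 6 of 8 of them, and in that of E2f2, and circles mainly in the mitotic and the chromosome and spindle rows; the E2f1 row, without a match, is not that gene's promoter.

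In AF10-deleted cells, 40 of the 46 genes rose by day 4 in DMSO and 2, E2f1 and Ccne2, fell, while 27.5% of all genes tested rose and 27.5% fell. The median log2 change of the 46 genes was 0.99. Mki67 was at 158 and 124 CPM in MEF_creAF10 and at 354 and 385 CPM in Day4_creAF10_DMSO. Its levels did not overlap, and it rose by 1.39 ± 0.12 (adjusted p 1.16e-05). Both day 4 libraries lay above both MEF libraries for 39.7% of all genes tested here. Mcm7 went from 52.7 and 60.5 CPM to 121 and 126 CPM (1.12 ± 0.0828, adjusted p 5.15e-06). E2f2 had the largest change of this comparison, from 1.35 and 1.34 CPM to 6.80 and 5.47 CPM (2.19 ± 0.24, adjusted p 5.41e-05). It was followed by Mybl2 (1.80), Cenpa (1.71), Tk1 (1.58), Aurkb (1.49) and Nusap1 (1.48), all of which passed the test. E2f1 was at 35.0 and 40.9 CPM and then at 25.0 and 24.5 CPM (-0.62 ± 0.12, adjusted p 0.00159). Ccne2 was at 13.1 and 9.81 CPM and then at 7.59 and 6.65 CPM (-0.68 ± 0.20, adjusted p 0.0142). Of these 2 lower calls 1 was lost without the Day4_creAF10_DMSO replicate 2 library and without the MEF_creAF10 replicate 1 library. The genes that did not pass were Mcm4 (0.13, adjusted p 0.111), Gins2 (0.18, adjusted p 0.255), E2f8 (0.35, adjusted p 0.0839, paired adjusted p 0.0318) and Ccne1 (-0.01, adjusted p 0.946). Whether the day 4 change itself differed between deleted and intact cells was tested as an interaction of stage and deletion, and neither edgeR fit nor DESeq2 called any of the 46 genes; at an unadjusted p under 0.05 there was none in the main fit and 1, Nusap1, in the paired fit. The licensing and fork genes had a lower rise in deleted cells in 10 of 11 cases, with a median interaction of -0.16, and Mki67 had one of -0.19 ± 0.16 and Mcm7 one of -0.12 ± 0.12. The interaction was negative for 52.2% of the 46 genes and for 49.8% of all genes tested. Over all genes that test called 0.0% in the main fit and 1.16% in the paired fit. An unadjusted p under 0.05 was found for 507 of all 13936 genes in the main fit and for 1835 in the paired fit.

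The 2 replicates did not stand in the same relation at both stages. In MEFs the replicate 1 library was above the replicate 2 library for all 13 mitotic and all 11 chromosome and spindle genes, in MEF_fl and again in MEF_creAF10. Of all 13936 genes tested it was above for 7042 in MEF_fl and for 6996 in MEF_creAF10, with a median log2 difference of 0.0 in both. The median difference in MEF_creAF10 was 0.35 on the log2 scale for the mitotic and 0.36 for the chromosome and spindle genes, and 0.26 and 0.19 in MEF_fl. For the licensing and fork genes it was -0.05 in MEF_fl and 0.14 in MEF_creAF10. Nusap1 shows the gap most plainly, with 26.0 and 18.9 CPM in MEF_fl and 23.4 and 15.2 CPM in MEF_creAF10, against 53.7 and 50.2 CPM in Day4_fl_DMSO. On day 4 the replicate 1 library was the higher one for 2 of the 11 chromosome and spindle genes in each DMSO group and for 4 in each inhibitor group. For the 13 mitotic genes it was the higher one for 6 in Day4_fl_DMSO, 5 in Day4_fl_SGC, 7 in Day4_creAF10_DMSO and 10 in Day4_creAF10_SGC. Of all 13936 genes it was the higher one for 6743, 6854, 7034 and 7043 in these groups, in the same order. The libraries numbered replicate 1 held between 246 and 290 CPM of 4 Y-linked genes in sum, and those numbered replicate 2 at most 2.37 CPM. The numbers thus appear to mark 2 sources of cells, but no label says so. Fibroblast markers were also higher in the replicate 1 MEFs, at 58900 and 53800 CPM in sum against 39600 CPM in both replicate 2 libraries. The part of the source in these differences was not tested.

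Deleting AF10 in MEFs gave no call among the 46 genes, nor did any other comparison of deleted with intact cells or of inhibitor with vehicle in the main edgeR test, and DESeq2 also called none of them. In MEFs the median log2 difference, deleted minus intact, was -0.06, and the range was -0.26 to 0.57. At an unadjusted p under 0.05 there were 300 of all 13936 genes tested and 1 of the 46, Gins1. It was at 1.78 and 2.25 CPM in MEF_fl and at 2.90 and 3.09 CPM in MEF_creAF10 (0.57, adjusted p 1.0), without overlap but at few counts. Both deleted libraries lay above both intact ones for 9.77% of all genes tested. Mki67 was at 158 and 124 CPM in MEF_creAF10 beside 146 and 137 CPM in MEF_fl (-0.01 ± 0.12, interval -0.27 to 0.25). Mcm7 differed by 0.06 ± 0.0831 (interval -0.13 to 0.24). For 41 of the 46 genes the 95% interval lay within a 1.5-fold change in either direction. The intervals are per gene, without adjustment for their number, and cover Cre and the deletion together. Over all genes the test called 0.0%, and the paired fit called 0.962% and none of the 46.

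On day 4 in DMSO the deletion also gave small differences. Of the 46 genes 32 were lower and 14 higher in deleted cells, with a median of -0.06, and 49.2% of all genes tested were lower. The main test called 0.0% of all genes, and none of the 46 genes, of which Mcm4 and E2f1 had an unadjusted p under 0.05. Of all 13936 genes tested 988 had such a p. The licensing and fork genes were lower in 10 of 11 cases, with a median of -0.15. Mcm6 was at 122 and 111 CPM in Day4_fl_DMSO and at 104 and 93.3 CPM in Day4_creAF10_DMSO. The deleted libraries were both lower, by -0.22 in replicate 1 and -0.25 in replicate 2. In the main fit its difference of -0.24 ± 0.18 had an adjusted p of 0.857. In the paired fit, which compares libraries of the same replicate number, it was -0.24 ± 0.0706 with an adjusted p of 0.0409. The other settings gave 0.364 to 1.0. The paired fit called 6.74% of all genes here, and Mcm6 was the only one of the 46. Mki67 was at 354 and 385 CPM in deleted cells beside 400 and 447 CPM (-0.20 ± 0.12, adjusted p 0.779, interval -0.45 to 0.06). Mcm7 was at 121 and 126 CPM beside 127 and 130 CPM (-0.06 ± 0.081, adjusted p 0.958, interval -0.24 to 0.12).

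Under SGC0946 the deletion gave a median of -0.03 over the 46 genes, with 29 lower and 17 higher. That is 63.0% lower, beside 49.9% of all genes tested. The test called 0.0% of all genes in the main fit and 0.172% in the paired fit, and neither called any of the 46. At an unadjusted p under 0.05 there was 1 of the 46, Mcm2, in the main fit, and 251 of all 13936 genes. In the paired fit there were 10 of the 46 and 1081 of all genes. The licensing and fork genes were again lower in 10 of 11 cases, with a median of -0.16; the exception was Gins1 in both comparisons. Of the chromosome and spindle genes 8 of 11 were higher in deleted cells, with a median of 0.05. Mki67 was at 365 and 376 CPM in Day4_fl_SGC and at 373 and 393 CPM in Day4_creAF10_SGC, a difference of 0.05 ± 0.12 (interval -0.21 to 0.30). Mcm7 differed by -0.14 ± 0.0813 (interval -0.32 to 0.04). The 95% interval lay within a 1.5-fold change for 42 of the 46 genes in DMSO and for 40 under the inhibitor.

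The inhibitor in cells with intact AF10 was the comparison with the lowest median, -0.09, with 37 of the 46 genes lower and 9 higher. That is 80.4% lower, beside 51.7% of all genes tested. In the main test 1.11% of all genes were called and none of the 46, of which Mcm4, Gins1 and Cenpf had an unadjusted p under 0.05. Such a p was found for 1856 of all 13936 genes. The paired fit called 17.7% of all genes and 5 of the 46 (10.9%), a share below that of all genes. Gins1 was at 6.89 and 6.37 CPM in Day4_fl_DMSO and at 4.97 and 4.15 CPM in Day4_fl_SGC. Both inhibitor libraries were lower (-0.55 ± 0.17, paired adjusted p 0.0267; 0.325 in the main fit and 0.164 to 0.669 in the others). Mcm6 fell in the paired fit from 122 and 111 CPM to 95.9 and 93.0 CPM (-0.30 ± 0.0711, paired adjusted p 0.00309; 0.0726 to 0.79 elsewhere). The checkpoint kinase gene Bub1 fell from 34.9 and 33.8 CPM to 26.7 and 29.3 CPM (-0.30 ± 0.0915, paired adjusted p 0.0235; 0.126 to 0.824 elsewhere). The kinetochore gene Cenpf fell from 78.8 and 85.5 CPM to 69.2 and 69.2 CPM (-0.25 ± 0.0711, paired adjusted p 0.0151; 0.0869 to 0.671 elsewhere). Cyclin B1 (Ccnb1) went the other way, from 76.8 and 83.6 CPM to 90.5 and 93.7 CPM (0.20 ± 0.0702, paired adjusted p 0.0493; 0.202 to 0.767 elsewhere). No other setting called any of these 5 genes. Their inhibitor and vehicle libraries did not overlap. Both inhibitor libraries lay below both vehicle libraries for 19 of the 46 genes (41.3%) and above them for 3 (6.52%). Over all genes tested the shares were 24.2% below and 23.4% above, and the difference in shares was not tested. Mki67 was at 365 and 376 CPM beside 400 and 447 CPM in vehicle (-0.19 ± 0.12, interval -0.45 to 0.06), and Mcm7 at 117 and 122 CPM beside 127 and 130 CPM (-0.11 ± 0.0811, interval -0.29 to 0.07). For 41 of the 46 genes the interval lay within a 1.5-fold change.

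In AF10-deleted cells the inhibitor gave a median of -0.03, with 30 genes lower and 16 higher. That is 65.2% lower, beside 50.9% of all genes tested. The main test called 0.00718% of all genes and none of the 46, of which Mcm4 and Mcm7 had an unadjusted p under 0.05. Such a p was found for 955 of all 13936 genes. The paired fit called 7.75% of all genes and 1 of the 46, Cdt1. It was at 24.6 and 19.9 CPM in Day4_creAF10_DMSO and at 19.4 and 13.5 CPM in Day4_creAF10_SGC. The groups nearly met, while Cdt1 fell in both replicates (-0.44 ± 0.11, paired adjusted p 0.0127, against 0.751 in the main fit and 0.216 to 1.0 in the others). Mcm7 was at 111 and 105 CPM beside 121 and 126 CPM (-0.19 ± 0.0812, adjusted p 0.694, interval -0.37 to -0.01). Mki67 was at 373 and 393 CPM beside 354 and 385 CPM (0.05 ± 0.12, interval -0.21 to 0.31). As in the intact cells, the licensing and fork genes were lower with the inhibitor in 10 of 11 cases. Gins2 was the exception in both kinds of cell. The medians were -0.15 in deleted and -0.09 in intact cells. Of these 11 genes 8 were lower in both replicates in deleted cells, and only 6 in intact cells. The mitotic and the chromosome and spindle genes had medians of 0.01 and 0.03 in deleted cells. The interval lay within a 1.5-fold change for 42 of the 46 genes. These day 4 comparisons share libraries, so their counts are not independent of each other.

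**Figure D4:**
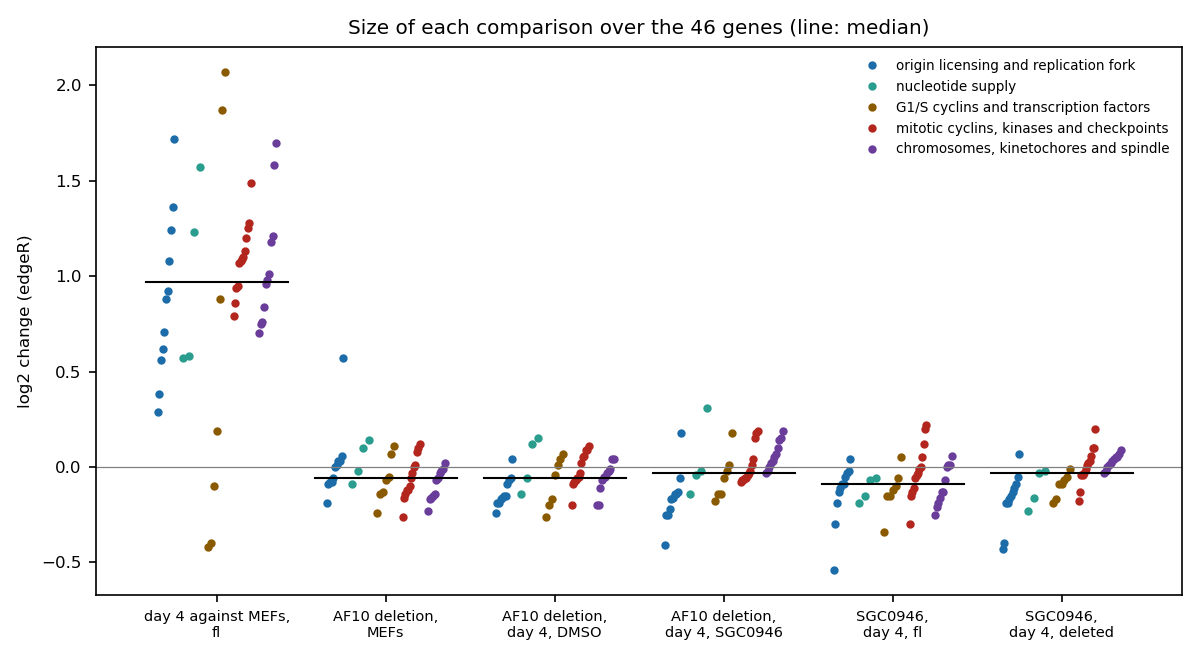
Log2 change of each of the 46 genes (points, coloured by role) in 6 comparisons, with black lines at the medians. The median is 0.97 for day 4 against MEFs and between -0.09 and -0.03 for the deletion and inhibitor comparisons, in which Gins1 accounts for the highest point in MEFs (0.57) and the lowest with the inhibitor in fl cells (-0.54).

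The interaction of deletion and inhibitor called none of the 46 genes in either edgeR fit or in DESeq2. At an unadjusted p under 0.05 there was none in the main fit, and there were 5 in the paired fit: Bub1, Mki67, Cenpf, Cdt1 and Cenpe. Of all 13936 genes tested 303 had such an unadjusted p in the main fit and 1445 in the paired fit. At an adjusted p under 0.05 the interaction test called 0.0% of all genes in the main fit and 0.395% in the paired fit. Mki67 had an interaction of 0.24 ± 0.16 on the log2 scale (interval -0.12 to 0.61) in the main fit and of 0.24 ± 0.0992 (interval 0.04 to 0.45, paired adjusted p 0.359) in the paired fit. Mcm7 had one of -0.08 ± 0.11 (interval -0.34 to 0.17). The main intervals are wider than those of the single comparisons, and 31 of the 46 lay within a 1.5-fold change.

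Side by side, the vehicle-treated cells with intact AF10 had the highest levels of several genes. For 11 of the 46 genes (23.9%) both Day4_fl_DMSO libraries lay above all 6 other day 4 libraries, and for none did both lie below; over all genes tested the shares were 9.68% above and 8.76% below. This grouping was chosen after the values were seen and has no test. The 11 were the helicase genes Mcm4, Mcm5, Mcm6 and Mcm7, then Rrm1, E2f1, Bub1, Mki67, Top2a, Cenpf and Kif11. Mcm5 was at 80.7 and 74.5 CPM in Day4_fl_DMSO and at 63.1 to 71.4 CPM in the others. Rrm1 was at 288 and 274 CPM against 224 to 259 CPM, and E2f1 at 31.1 and 28.3 CPM against 21.4 to 27.0 CPM. In the 4 MEF libraries Rrm1 was between 101 and 135 CPM. For Mcm4 the Day4_creAF10_SGC libraries, at 72.9 and 72.6 CPM, lay within the MEF levels of 72.4 to 76.8 CPM. The Day4_fl_SGC libraries, at 78.9 and 81.1 CPM, lay above those levels, as did Day4_creAF10_DMSO at 82.1 and 81.3 CPM.

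Other genes of the same pathways were counted in the comparison of Day4_fl_DMSO with MEF_fl. There 25.7% of all genes tested rose and 26.3% fell. Of 40 further genes of the replication machinery 34 rose in Day4_fl_DMSO against MEF_fl and none fell, with a median of 0.68. The origin firing factor Mcm10 rose by 1.90 and the licensing inhibitor Gmnn (geminin) by 1.61. The origin recognition subunits Orc2 (0.02) and Orc6 (0.07) and the single-strand binding subunit Rpa1 (-0.14) did not pass. Of 41 further mitosis and cytokinesis genes 37 rose and none fell, with a median of 0.93. Spc24 of the kinetochore rose by 1.60, the abscission gene Cep55 by 1.57 and the RhoA exchange factor gene Ect2 by 1.46. Securin (Pttg1) had a log2 change of -0.00 and the condensin subunit Smc2 one of 0.01. Of 15 E2F, pocket protein and MuvB genes 7 rose and 1 fell. The retinoblastoma gene Rb1, whose protein holds E2F factors inactive, went from 29.5 and 32.9 CPM to 115 and 110 CPM (1.85 ± 0.10, adjusted p 8.38e-07). The E2F partner Tfdp2 rose by 1.35 and Lin9 of MuvB by 0.61, and Lin54, the DNA-binding subunit of MuvB, fell by 0.45. Of 14 CDK inhibitors and G1 cyclins and kinases 5 rose (35.7%) and 1 fell (7.14%). Cdk6 rose by 0.95, Cdkn2a by 0.92 and Ccnd2 by 0.82, and Ccnd3 fell by 0.54. The paired fit called 6 of the 14 higher and 3 lower, 64.3% of the list beside 68.2% of all genes tested. It added Ccnd1 as higher and, as lower, the CDK inhibitor genes Cdkn2b and Cdkn1c, whose levels differed between the replicate numbers. Cdkn1c, chosen after its values were seen, was at 470.0 and 190.0 CPM in MEF_fl and at 172 and 76.6 CPM in Day4_fl_DMSO (-1.41 ± 0.63, adjusted p 0.0958 in the main fit; -1.37 ± 0.12, paired adjusted p 8.87e-07). In the other lists the paired fit added Orc4 as lower and Prc1 as higher. These lists were described by count, and their members were not compared with the 46 by a test. The p21 gene Cdkn1a was between 351 and 418 CPM in all 12 libraries.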

How the data were processed

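Poly(A) RNA of 12 libraries was sequenced from mouse cells. Gene-level expected counts and TPM values were deposited as RSEM output; RSEM, Bowtie and build mm9 are named in the submitters' processing notes, with versions not given in the sources used here. Labels on each library gave its group and replicate number. Expected counts were rounded, genes with low counts were filtered (filterByExpr, 13936 of 20325 kept), and all 9 comparisons were tested in 1 edgeR 4.0.16 quasi-likelihood fit over the 6 groups (R 4.3.3, limma 3.58.1, TMM factors, Benjamini-Hochberg over all genes, called at an adjusted p under 0.05). SE is the log2 change divided by the square root of F, and intervals are 95%. Printed CPM are TMM-scaled, and differences between single libraries are of log2 CPM with a prior count of 2. With 2 libraries a group, precision is limited by the replicates.

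The replicate numbers appear to mark 2 sources, since libraries of different number differ in Y-linked RNA. Deviations of same-numbered libraries correlated over all genes at 0.481 to 0.784 within a stage (7 pairs) and 0.339 to 0.393 across stages (8 pairs). Over the 46 genes they correlated at 0.209 to 0.625 within a stage and at -0.426 to -0.054 across stages. The paired fit adds the replicate number as a block per stage. No label names separate animals or cultures, so p-values measure the spread between these libraries. Alternatives were 2 kinds of block, RLE and upper-quartile factors, no filter, fits within a stage, DESeq2 1.42.0, leaving out each library, and, chosen after seeing the data, library totals without TMM factors. Statistics were tested on simulated data. All 46 genes could be named with levels; full statistics went to Mki67 and Mcm7 throughout, to the 2 largest and 1 smallest changes per role by day 4 in fl cells, to genes called in another comparison (at most 6), and to the 3 largest per direction of each other list; further genes were chosen after their values were seen, and 1 gene that the rule names is not reported here. The genes and lists were chosen with earlier results of these data known. Promoters came from RefSeq (GRCm38.p6), and no coordinates of mm9 were used.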

Additional observations from a re-analysis of the deposited data

How the results depend on the processing

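Of the single-gene values recomputed under the alternatives 856 kept their direction and call, 7 gained a call, 2 lost one and 9 changed sign. Against MEFs on day 4 in fl cells, the paired fit (replicate block per stage) called 2 genes lower, library totals without TMM factors, which moved the median of all genes by 0.16, called 0, and leaving out a library gave 0 to 1. Ccne1 was then at 0.07 without TMM factors and at -0.21 to 0.02 without 1 library, and Tyms at 0.42 without MEF_fl replicate 1 and 0.45 without Day4_fl_DMSO replicate 2. In deleted cells the count of lower genes was 1 to 2 without 1 library. The paired fit called 1 gene lower for the deletion in DMSO, 1 higher and 4 lower for the inhibitor in fl cells, and 1 lower for the inhibitor in deleted cells; it also called E2f8 higher on day 4 in deleted cells and changed no other call of the 46 genes.

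For the deletion in MEFs the median was -0.04 without TMM factors and -0.17 to 0.05 without 1 library; for the deletion in DMSO it was -0.04 with upper-quartile factors and -0.07 to -0.05 without 1 library. For the inhibitor in fl cells it was -0.07 with upper-quartile factors, -0.11 without a filter and -0.10 to -0.07 without 1 library, and in deleted cells -0.02 with upper-quartile factors, -0.02 without TMM factors and -0.06 to -0.01 without 1 library. The interaction medians were 0.01 to 0.07 (deletion and inhibitor) and -0.13 to 0.12 (stage and deletion) without 1 library. For the deletion in MEFs Mki67 was at 0.00 without TMM factors and at -0.20 to 0.15 without 1 library, and Mcm7 at -0.05 to 0.15. Without 1 library Mki67 was also at -0.01 to 0.11 for the inhibitor in deleted cells and at -0.35 to 0.00 for the interaction of stage and deletion. The cause of these shifts was not tested. Genes near a few CPM, such as Gins1 and E2f2, have the widest intervals.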
